A study of Bos taurus with 18 samples.

Results

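The comparison described here is the difference of diet responses between the PHY arm and the control arm of a feeding study in cattle, measured in rumen papillae, the finger-like folds that line the forestomach. For each gene the response of PHY cows to grain was taken as grain PHY minus forage PHY on the log2 scale, the response of control cows as grain control minus forage control, and the second was subtracted from the first. A positive difference therefore means a higher grain-to-forage ratio in PHY cows than in control cows. All 18 of the 18 libraries enter it, and 22202 of the 27270 genes in the table had enough reads to be tested.

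The animals were 9 non-lactating Holstein cows with a rumen cannula, of which 4 were in the PHY arm and 5 in the control arm. Every cow was biopsied on a diet of 100% forage and then after a move to a high-grain diet with 65% concentrate. The libraries form 4 groups, called grain_PHY (n = 4), forage_PHY (n = 4), grain_control (n = 5) and forage_control (n = 5). The labels do not expand PHY, do not say whether it was already given at the forage biopsy, and tie no library to a cow. The diets followed each other in 1 fixed order in both arms, so diet and time cannot be told apart within an arm. Replicate numbers only follow the order of deposit, and p-values measure the spread between libraries.

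The rumen wall is a stratified squamous epithelium whose cells divide at the base and flatten into a cornified layer facing the fermenting feed. It takes up short-chain fatty acids made by the microbes, turns part of the butyrate into ketone bodies, and moves sodium, bicarbonate and urea between blood and rumen. Starch-rich feed speeds fermentation and lowers rumen pH, and the junctions, transporters, ketone enzymes and immune genes of the papillae are the functions usually followed when the diet changes. Subtracting the control response from the PHY response asks whether these genes reacted to grain differently in the PHY arm.

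Depth was uneven between the groups. Counted reads ran from 3953060 to 15474334 in grain_PHY, from 18655841 to 34471682 in forage_PHY, from 5433497 to 23949058 in grain_control and from 15808999 to 33935756 in forage_control, so the PHY libraries of the 2 diets did not overlap in depth. Reads on 144 olfactory receptor genes, usually silent outside the nose, serve here as a background measure, in CPM (the count scaled to library size). They came to 42.1 to 345 CPM in grain_PHY, 20.8 to 32.2 in forage_PHY, 32.9 to 169 in grain_control and 16.3 to 65.0 in forage_control. The grain minus forage difference of this measure was 2.02 on the log2 scale in PHY cows and 1.14 in control cows, a difference of 0.89 (exact permutation of arm labels within diet, p = 0.326, 0.866 after adjustment over 13 library measures). The log2 total reads differed between grain and forage by -1.43 in PHY cows and by -0.75 in control cows, a difference of -0.68 (exact permutation p = 0.315, adjusted p = 0.866). The tissue label was checked on 10 keratinocyte markers, whose summed level was 11139 to 14529 CPM in grain_PHY, 14332 to 18965 in forage_PHY, 9342 to 20542 in grain_control and 8096 to 23629 in forage_control, led by the desmosomal gene DSP.

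**Figure D1:**
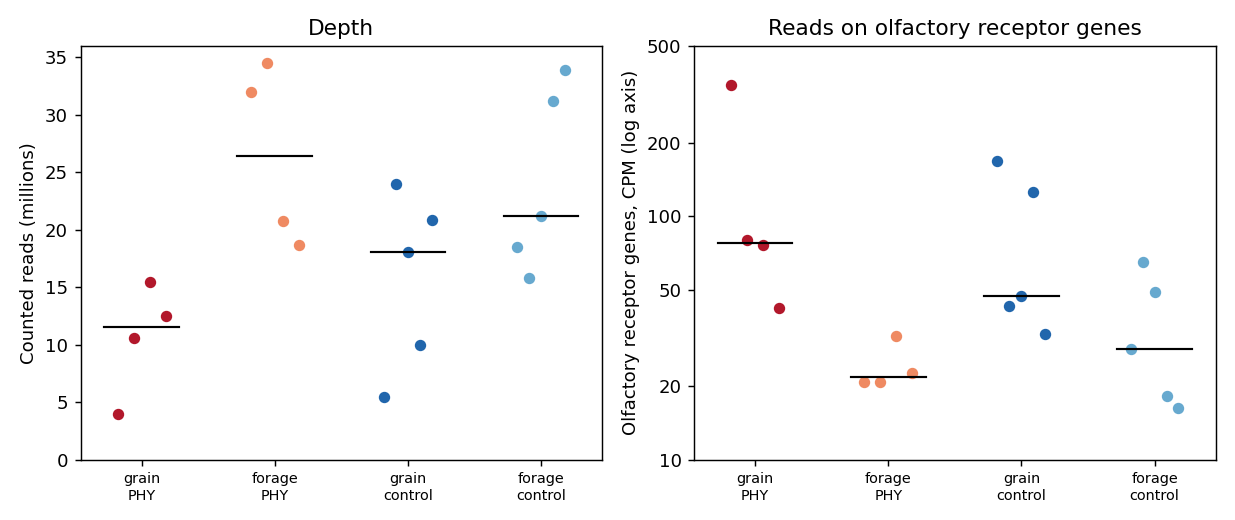
Counted reads (left) and CPM on olfactory receptor genes on a log axis (right) for each of the 18 libraries, with a line at the group median. The 4 grain_PHY libraries held fewer reads than every forage_PHY library, and grain_PHY 1 stood highest in olfactory receptor CPM at 345.

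No gene was called different between the arms. At an adjusted p under 0.05 (edgeR quasi-likelihood F test, Benjamini-Hochberg over 22202 genes), 0 genes were called, and the smallest adjusted p was 0.954. At an unadjusted p under 0.05 there were 442 genes, 1.99% of those tested, with 271 higher in PHY (1.22%) and 171 lower (0.77%). The limma voom test gave 0 adjusted calls and 850 unadjusted, and the DESeq2 Wald test 0 and 728. The median difference over all genes was 0.02, with 11381 positive and 10821 negative values. Gene values below are therefore descriptions of single genes, most with an adjusted p of 0.954 in the edgeR test.

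The data set limits on the size of an undetected difference. The median 95% interval of the difference was ±1.25 on the log2 scale over all tested genes, which is a factor of 2.38 to either side. Over the 10962 genes that have a symbol and average 5 CPM or more in their highest group it was ±0.78, a factor of 1.71. Of these 10962 genes, 4451 (40.6%) had an interval that lay wholly within a 2-fold difference in either direction. For the other genes at this level, a 2-fold difference in diet response between the arms was not excluded by the interval.

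Neither arm had a called diet response of its own in the same fit. PHY cows had 0 called genes and a smallest adjusted p of 0.0696 in edgeR, and 8820 genes (39.7%) at an unadjusted p under 0.05, of which 4958 (22.3%) were higher on grain and 3862 (17.4%) lower. Control cows had 0 called genes and a smallest adjusted p of 0.432 in edgeR, and 2518 genes (11.3%) at an unadjusted p under 0.05, of which 1426 (6.42%) were higher on grain and 1092 (4.92%) lower. With other tools the PHY contrast passed its threshold and the control contrast did not: the DESeq2 Wald test called 5275 genes in PHY cows and 0 in control cows, and limma voom with quality weights 7924 and 0. Of these PHY calls, 0 were called by the difference. The 2 counts do not compare the arms, because each counts its own test against 0. The arms also differ in number of libraries and in depth.

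Genes past the unadjusted threshold in 1 arm mostly had the same sign in the other. In PHY cows only, 4012 genes (18.1%) were higher on grain at an unadjusted p under 0.05, and 3875 of them (96.6%) also had a positive response in control cows. Their median response was 2.26 in PHY cows and 0.88 in control cows. In PHY cows only, 3140 genes (14.1%) were lower on grain, and 3011 of them (95.9%) were also negative in control cows, with medians of -0.72 in PHY cows and -0.32 in control cows. The control-only classes were smaller, with 480 genes (2.16%) higher on grain and 370 (1.67%) lower. Both arms passed in the same direction for 946 genes that were higher on grain and 722 that were lower. Beside these shares, 13.5% of all tested genes had opposite signs in the 2 arms by point estimate. With the olfactory receptor measure as a covariate 36.2% did.

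The difference itself passed its own unadjusted threshold in few members of these 1-arm classes. It did so for 256 of the 4012 genes higher in PHY cows only, for 143 of the 3140 lower in PHY cows only, for 9 of the 480 higher in control cows only and for 2 of the 370 lower in control cows only. It passed the adjusted threshold for 0 genes in every class. The first of these shares, 6.38%, and the second, 4.55%, stand beside 1.99% over all genes, and since a class defined on 1 arm also uses values that enter the difference, nothing is read from them.

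Opposite responses were rarer still. No gene (0 of 22202) had an unadjusted p under 0.05 in both arms with opposite signs, 6 genes did at p under 0.1 and 32 genes (0.144%) at p under 0.2. By point estimate alone 3000 genes (13.5%) had opposite signs. That share was 36.2% with the olfactory receptor measure as a covariate and 35.8% without the 3 libraries highest in it (grain_PHY 1, grain_control 1 and grain_control 4). Of the 442 genes with an unadjusted p under 0.05 for the difference, 173 had opposite signs in the 2 arms and 269 the same sign.

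**Figure D2:**
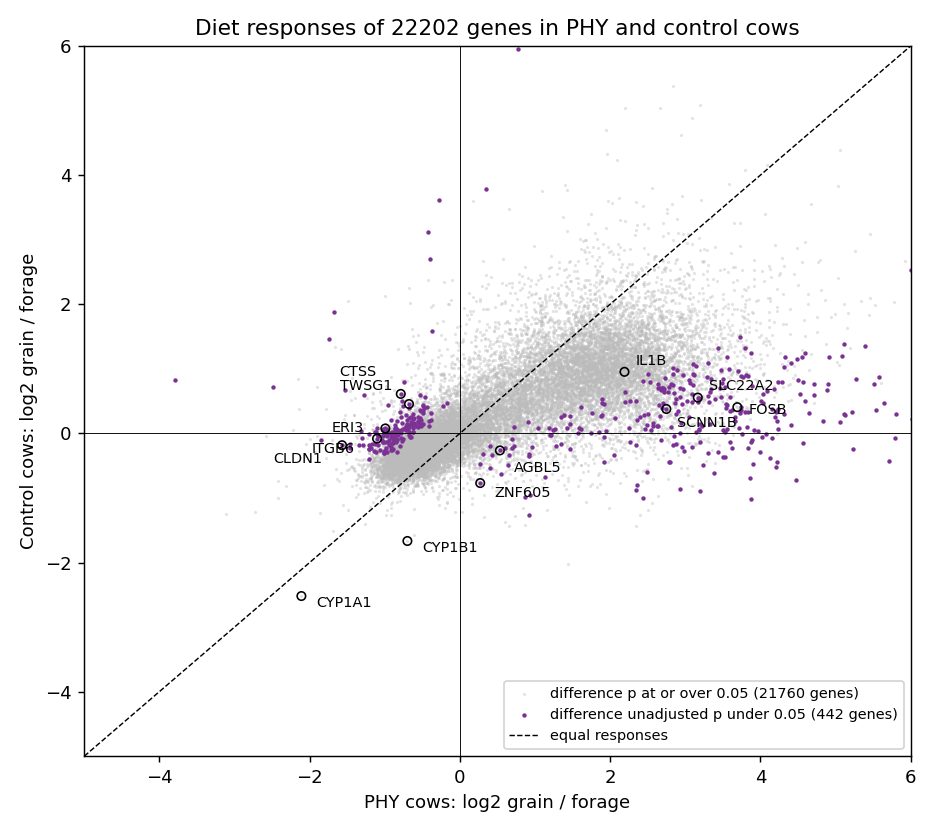
Diet response (log2 grain over forage) of each tested gene in PHY cows (horizontal) against control cows (vertical); the dashed line marks equal responses, purple points the 442 genes with an unadjusted p under 0.05 for the difference, and open circles genes named in the text. Most genes lie in the quadrants where both arms have the same sign, and 8 genes lie outside the axes.

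The size and sign of the difference followed the level of the gene. Among 5030 genes with a mean under 1 CPM the median difference was 0.80, with medians of 1.81 in PHY cows and 0.93 in control cows. Among 1310 genes over 64 CPM it was -0.30, with medians of -0.69 in PHY cows and -0.41 in control cows. Genes scarce in papillae thus had a larger positive response in PHY cows, and abundant genes a more negative one. The bins between gave medians of 0.55 at 1 to 4 CPM, -0.09 at 4 to 16 CPM and -0.25 at 16 to 64 CPM. The 123 genes higher and 9 lower at an unadjusted p under 0.05 in the lowest bin, and the 1 higher and 54 lower at 16 to 64 CPM, follow the same split.

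The level pattern was sensitive to a background term in the fit and to single libraries of both arms. With the olfactory receptor measure as a covariate the 5 medians, lowest bin first, were -0.13, -0.09, -0.05, -0.02 and 0.02, and with 1 surrogate variable they were -0.08, -0.05, -0.06, -0.08 and -0.06. Without grain_PHY 1, the shallowest library, they were 0.40, 0.28, -0.03, -0.09 and -0.08. Without forage_control 2 the lowest bins had medians of 0.42 and 0.31, without forage_control 3 they had 0.50 and 0.33, and without grain_control 5 the bin over 64 CPM had -0.14. Without the 3 libraries highest in the measure, 2 of them control libraries, the 5 medians were 1.18, 0.89, -0.02, -0.19 and -0.24. With every library thinned to the lowest total they were 1.09, 0.70, 0.02, -0.17 and -0.21. Each list below is to be read beside these values, since abundant genes share the lower end and scarce genes the upper end.

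**Figure D3:**
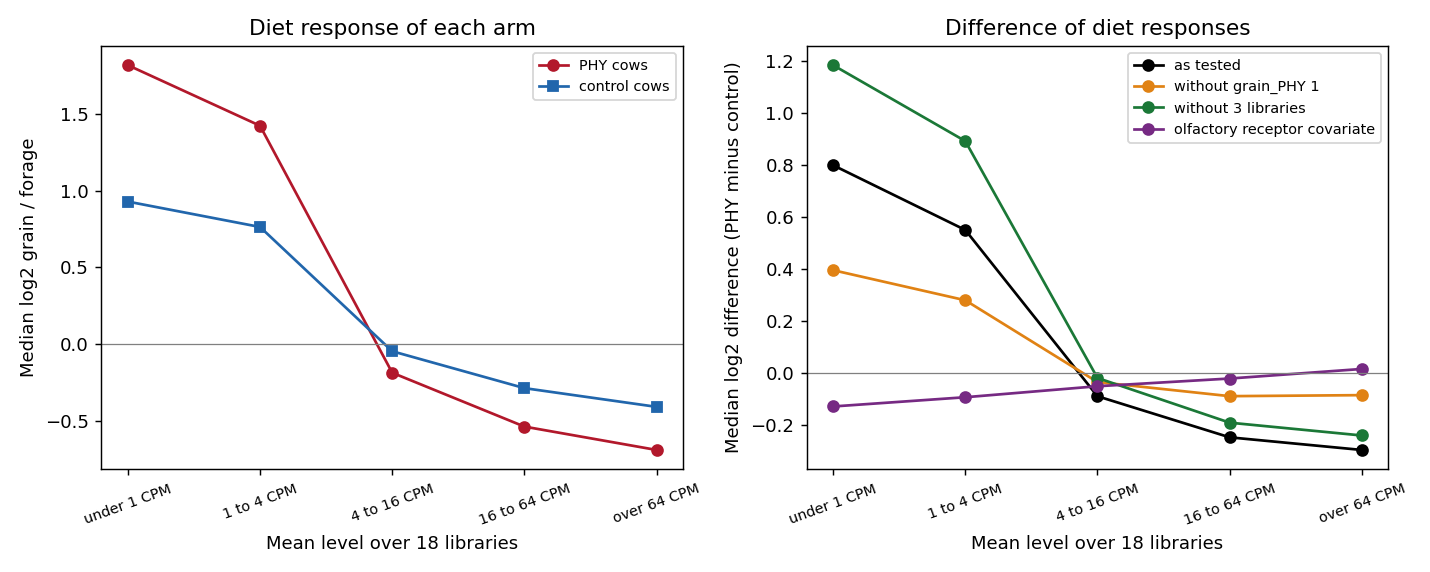
Median diet response of each arm (left) and median difference between the arms (right) by mean level over the 18 libraries. The right panel gives the values as tested, without grain_PHY 1, without the 3 libraries highest in olfactory receptor CPM, and with that measure as a covariate, where the medians lie between -0.13 and 0.02.

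Of the 10 leading genes with opposite point estimates, 8 were lower by estimate on grain in PHY cows and higher in control cows, and 2 the reverse. They were taken in the order of the larger of the 2 arm p-values, among genes with a symbol and at least 5 CPM in the highest group. At such levels negative differences prevailed over all genes. At an unadjusted p under 0.05, 28 were higher and 98 lower at 4 to 16 CPM, and 1 and 54 at 16 to 64 CPM. Nothing is read from the split of the 10. TWSG1, a secreted regulator of bone morphogenetic protein signalling, stood first. It had 3.90, 7.89, 5.95 and 7.08 CPM in grain_PHY and 12.3, 11.2, 7.53 and 8.63 CPM in forage_PHY. In control cows it had 10.5, 13.9, 8.6, 9.24 and 15.2 CPM in grain_control and 7.62, 6.33, 6.13, 9.73 and 12 CPM in forage_control. All but 1 of the grain_PHY libraries lay below every forage_PHY library, and the control groups overlapped. Its response was -0.68 in PHY cows and 0.45 in control cows, a difference of -1.13 ± 0.37 (SE), and the unadjusted p of the difference was 0.00485.

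CTSS, the lysosomal protease cathepsin S that trims the invariant chain of MHC class II in antigen-presenting cells, had the largest difference of the 10. It had 2.49, 10.1, 5.47 and 5.31 CPM in grain_PHY and 13.9, 12, 6.31 and 8.12 CPM in forage_PHY. The control libraries held 8.22, 12.1, 9.74, 6.60 and 14.9 CPM in grain_control and 4.23, 3.41, 5.53, 9.40 and 11 CPM in forage_control. The groups overlapped in both arms. The response was -0.79 in PHY cows and 0.61 in control cows, a difference of -1.40 ± 0.51. The summed level of 14 myeloid marker genes, none at 0 in all libraries, was 63.2 to 243 CPM in grain_PHY, 45.7 to 74.8 in forage_PHY, 65.6 to 151 in grain_control and 38.4 to 65.5 in forage_control. Its diet response was 0.89 in PHY cows and 0.84 in control cows, so the difference of 0.05 was near 0 (exact permutation p = 0.926, adjusted p = 0.931). In tissue pieces such as these, fewer cells of a type and less RNA per cell cannot be told apart.

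A further 6 genes followed the pattern of TWSG1, with a negative response in PHY cows and a positive one in control cows. ADD3, an adducin of the membrane skeleton, had a response of -0.53 in PHY cows and 0.36 in control cows. HSDL1, a hydroxysteroid dehydrogenase-like protein, had -0.48 in PHY cows and 0.42 in control cows. TSC22D1, a transcription regulator first found as a target of transforming growth factor beta, had -0.48 in PHY cows and 0.44 in control cows. ABHD3, a phospholipase, had -0.44 in PHY cows and 0.41 in control cows. ANTXR2, a membrane receptor that binds matrix proteins, had -0.49 and 0.31 in PHY and control cows, and SLC10A7, a carrier tied to calcium handling, had -0.39 and 0.32. The differences of these 6 genes ran from -0.93 to -0.71. Across the alternatives run, the closest any of them came to 0 was -0.29, for ANTXR2.

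The other 2 genes of the 10 went the other way. TMEM145, a transmembrane protein, had 6.07, 6.68, 3.79 and 5.60 CPM in grain_PHY and 4.82, 3.62, 3.05 and 2.63 CPM in forage_PHY. Its control levels were 4.11, 3.83, 2.75, 4.03 and 3.88 CPM in grain_control and 4.90, 4.42, 5.67, 4.33 and 6.85 CPM in forage_control. Every grain_control library lay below every forage_control library, while the PHY groups overlapped. Its response was 0.64 in PHY cows and -0.50 in control cows, a difference of 1.13 ± 0.41. P3H1, which hydroxylates proline in collagen chains, had 0.43 in PHY cows and -0.33 in control cows.

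Among positive differences of genes with a symbol and at least 5 CPM in the highest group, AGBL5 had the smallest p. AGBL5, an enzyme that removes glutamate from tubulin, had 10.2, 10.2, 8.54 and 10.4 CPM in grain_PHY and 6.08, 7.2, 6.59 and 7.31 CPM in forage_PHY. Among control libraries it stood at 8.34, 6.95, 6.88, 8.21 and 5.14 CPM in grain_control and 8.0, 8.61, 10.1, 8.01 and 7.85 CPM in forage_control. Every grain_PHY library stood above every forage_PHY library, and the control groups overlapped. The response was 0.53 in PHY cows and -0.26 in control cows, a difference of 0.80 with a 95% interval from 0.21 to 1.38. IFT172, a subunit of the intraflagellar transport complex, had a response of 0.66 in PHY cows and -0.33 in control cows, a difference of 0.99 ± 0.36. Over the alternatives run, the smallest difference was 0.70 for AGBL5 and 0.77 for IFT172.

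Under the same conditions on symbol and level, the 10 positive differences with the smallest p were named. Of these 10, 9 had a point estimate farther from 0 in PHY cows than in control cows, the exception being ZNF605. The 10 were picked by the difference itself, so nothing is read from this split. Over all genes, 22.3% were higher on grain at an unadjusted p under 0.05 in PHY cows and 6.42% in control cows. CDHR1, a cadherin-related protein known from photoreceptors, averaged 8.37 ± 2.02 CPM in grain_PHY and 3.48 ± 0.62 in forage_PHY, and 5.02 ± 1.90 CPM in grain_control and 4.71 ± 1.5 in forage_control (SD). SLC22A2, an organic cation transporter, averaged 6.18 ± 4.90 CPM in grain_PHY and 0.69 ± 0.44 in forage_PHY, and 2.66 ± 1.87 in grain_control and 1.80 ± 1.51 in forage_control. For both genes the PHY groups did not overlap and the control groups did. RINL, a regulator of Rab proteins, ZFHX2, a zinc finger homeobox factor, and ALOX5, the 5-lipoxygenase of leukotriene synthesis, had PHY responses of 1.61, 0.69 and 1.89 beside control responses of 0.41, -0.08 and 0.29. IGSF1, an immunoglobulin superfamily membrane protein, had 2.93 in PHY cows and 0.57 in control cows. With the olfactory receptor measure as a covariate the differences of SLC22A2, IGSF1, RINL and ALOX5 were 1.47, 1.42, 0.64 and 0.85, against 2.61, 2.36, 1.2 and 1.61 without it.

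Among the negative differences of genes with a symbol and at least 5 CPM in the highest group, the smallest p belonged to ERI3. This exoribonuclease family member had a steady level in control cows and a low one in grain_PHY. It had 4.87, 2.60, 6.55 and 8.35 CPM in grain_PHY and 12.1, 9.97, 10.7 and 11.8 CPM in forage_PHY. Control cows had 10.8, 11.9, 10.4, 8.72 and 10.9 CPM in grain_control and 10.5, 10.2, 10.0, 9.81 and 9.56 CPM in forage_control. All 4 grain_PHY libraries lay below the other 14 libraries. The response was -0.99 in PHY cows and 0.08 in control cows, a difference of -1.07 ± 0.33, and the range over the alternatives was -1.33 to -0.84.

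ITGB6, the integrin beta chain of epithelia that activates latent transforming growth factor beta, showed the same arrangement. It had 4.77, 5.10, 5.53 and 6.09 CPM in grain_PHY and 9.57, 12.9, 15.4 and 8.34 CPM in forage_PHY. For control cows the values were 4.96, 9.79, 9.17, 8.80 and 9.63 CPM in grain_control and 11.8, 7.29, 7.93, 9.12 and 8.98 CPM in forage_control. The PHY groups did not overlap, and only grain_control 1 among the control libraries fell into the range of grain_PHY. The response was -1.10 in PHY cows and -0.08 in control cows, a difference of -1.02 with a 95% interval from -1.71 to -0.33.

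Further genes with a negative difference, named for its p or for the response in PHY cows, had control responses on either side of 0. MIS18A, which prepares centromeres for new histone, had a response of -0.95 in PHY cows and 0.44 in control cows. RAD18, a ubiquitin ligase of DNA damage tolerance, had -0.65 in PHY cows and 0.25 in control cows, and RCC1, the exchange factor that loads Ran with GTP, had -0.55 and 0.25 in the same order. TOR1B, a torsin of the endoplasmic reticulum named for its PHY response, had -0.82 in PHY cows and -0.03 in control cows. MEX3D, an RNA-binding protein, and TMEM97, a membrane protein that affects cholesterol traffic, had -1.21 and -1.22 in PHY cows beside -0.40 and -0.24 in control cows. The differences of these 6 genes ran from -1.39 to -0.79, and none came closer to 0 than -0.44 in any alternative, that value being for RCC1.

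Genes named for a response in control cows had differences of either sign. They came from 221 genes with an unadjusted p under 0.01 in control cows, against 1680 in PHY cows, among 10962 eligible genes, counts that each rest on an arm's own test. ZNF605, a zinc finger protein, had 6.39, 12.2, 8.6 and 6.58 CPM in grain_PHY and 5.32, 7.79, 6.53 and 8.48 CPM in forage_PHY. In control cows it had 2.42, 7.69, 6.82, 4.62 and 4.67 CPM in grain_control and 7.17, 9.68, 8.53, 11 and 8.79 CPM in forage_control. The groups overlapped in both arms, in control cows through grain_control 2 alone. The response was 0.27 in PHY cows and -0.77 in control cows, a difference of 1.04 ± 0.40.

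CYP1B1, a cytochrome P450 induced through the aryl hydrocarbon receptor, had 9.86, 5.47, 6.19 and 4.52 CPM in grain_PHY and 15.6, 6.64, 7.31 and 12.7 CPM in forage_PHY. The control libraries held 3.99, 5.68, 2.46, 3.74 and 6.03 CPM in grain_control and 5.88, 11.3, 9.80, 23.9 and 18.8 CPM in forage_control. The control groups touched at a single library on each side. The response was -0.70 in PHY cows and -1.67 in control cows, and the difference of 0.97 ± 0.50 had a 95% interval from -0.07 to 2.0. PRKRIP1, a nuclear protein that binds a kinase of the antiviral response, had -0.13 in PHY cows and -0.69 in control cows, with no overlap between grain_control and forage_control. PODNL1, a leucine-rich matrix protein, and ZNF532, a zinc finger protein, had -0.17 and -0.06 in PHY cows beside -0.85 and -0.65 in control cows. TBCE, a tubulin folding cofactor, had -0.10 in PHY cows and -0.57 in control cows, whereas MINDY1, a deubiquitinase, was more negative in PHY cows, with -1.05 beside -0.58. A gene named U2, for the spliceosomal RNA whose many copies can share reads, had 0.29 in PHY cows and 1.53 in control cows, a difference of -1.23 with an interval from -2.74 to 0.27.

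**Figure D4:**
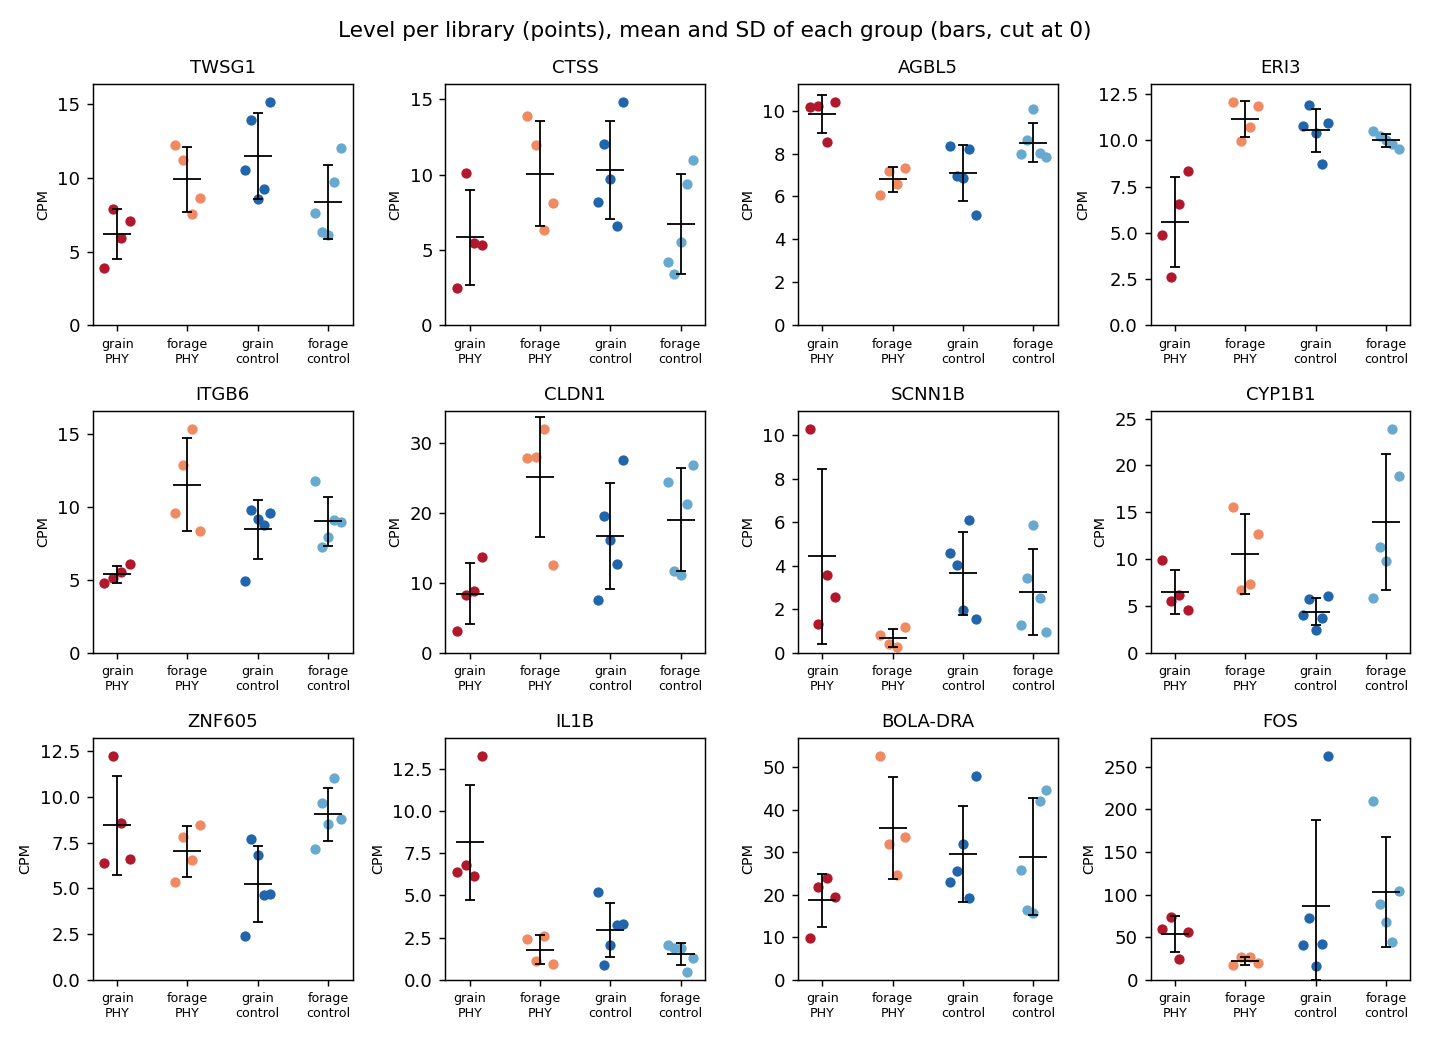
Level in CPM of 12 named genes in each library (points), with the mean and SD of each group (bars). For ERI3 the 4 grain_PHY libraries lie below the other 14, and for TWSG1 and CTSS the PHY and control means move in opposite directions between the diets.

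Junction genes had more negative diet responses in PHY cows. Of 24 tight junction and desmosome genes tested, 22 had a negative difference and 2 a positive one, with a median of -0.40 against 0.02 over all genes and -0.25 over genes at 16 to 64 CPM, the level bin that holds the list's median of 44.8 CPM. The median response was -0.80 in PHY cows and -0.35 in control cows. Over all genes at 16 to 64 CPM it was -0.53 in PHY cows and -0.28 in control cows. Of the 24, 15 were lower at an unadjusted p under 0.05 in PHY cows (17.4% of all genes) and 5 in control cows (4.92% of all genes). These shares are over genes of every level. The share at the level of the list was not computed, so nothing is read from these counts. For the difference, 0 of the 24 were called and 1, CLDN1, had an unadjusted p under 0.05. The list median was -0.11 with the olfactory receptor measure as a covariate and -0.54 to -0.27 when each library was left out in turn.

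CLDN1, the claudin that seals tight junctions of stratified epithelia, had 3.03, 8.26, 8.90 and 13.7 CPM in grain_PHY and 27.8, 28, 32.1 and 12.6 CPM in forage_PHY. Its control levels were 7.49, 19.6, 16.2, 12.7 and 27.6 CPM in grain_control and 24.5, 11.7, 11.1, 21.3 and 26.9 CPM in forage_control. Of the forage_PHY libraries only forage_PHY 4 fell into the range of grain_PHY, and the control groups overlapped widely. The response was -1.57 in PHY cows and -0.18 in control cows, a difference of -1.39 ± 0.54 with a 95% interval from -2.50 to -0.27. With the olfactory receptor covariate it was -1.0, and that was its value closest to 0 over the alternatives. CLDN4, another claudin, averaged 22.6 ± 8.18 CPM in grain_PHY and 48.7 ± 7.35 in forage_PHY, and 38.6 ± 19.3 in grain_control and 50 ± 20.8 in forage_control. The interval of the difference for CLDN4 ran from -1.71 to 0.23.

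Layer genes and their regulators had list medians on either side of 0. Of 17 differentiation regulators, 16 had a negative difference, with a median of -0.33. Of 14 basal and hemidesmosome genes 12 did, with a median of -0.14. In the level bins that hold the median levels of these lists, all genes had -0.25 (16 to 64 CPM) and -0.30 (over 64 CPM). HES1, a target of Notch, had a response of -1.19 in PHY cows and -0.69 in control cows. GRHL3, a barrier transcription factor, had -0.91 in PHY cows and -0.44 in control cows, and ITGA6, the integrin of the hemidesmosome, had -0.75 and -0.23 likewise. The 28 spinous and cornified genes were evenly split, with 14 positive and 14 negative differences and a median of 0.04. CASP14, the caspase of cornification, averaged 3.04 ± 2.59 CPM in grain_PHY and 0.49 ± 0.27 in forage_PHY, and 2.09 ± 1.06 in grain_control and 1.11 ± 0.64 in forage_control. Its difference of 1.70 was 1.0 without grain_PHY 1 and 0.64 with the olfactory receptor covariate. CRNN, cornulin of the cornified layer, had a difference of 0.83 that was -0.05 with that covariate and 0.27 without grain_PHY 1. The keratins had differences of -0.06 for KRT5 of the basal layer and -0.33 for KRT10 of the suprabasal layer, whose intervals ran from -1.17 to 1.05 and from -1.40 to 0.73.

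Cell division genes had a negative median response in PHY cows and a median near 0 in control cows. Of 32 tested, 29 had a negative difference, with a median of -0.40, and the median response was -0.44 in PHY cows and -0.06 in control cows. The list had a median level of 25.7 CPM. Over all genes at 16 to 64 CPM the median response was -0.53 in PHY cows and -0.28 in control cows. Their median difference was -0.25, with quartiles of -0.41 and -0.09, so most genes at this level had a negative difference. TYMS, which makes thymidylate for DNA, averaged 10.4 ± 3.72 CPM in grain_PHY and 19.4 ± 2.39 in forage_PHY, and 12 ± 3.51 in grain_control and 14.5 ± 3.30 in forage_control. CCNB1, the mitotic cyclin B1, had a response of -0.69 in PHY cows and -0.04 in control cows. MKI67, the proliferation antigen, averaged 245 ± 97.2 CPM in grain_PHY and 396 ± 94.4 in forage_PHY, and 227 ± 72.8 in grain_control and 270 ± 100 in forage_control. None of the 32 had an unadjusted p under 0.05 for the difference. The list median was -0.26 with the olfactory receptor covariate and -0.21 without grain_PHY 1.

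Ion channel genes held some of the largest differences, at low levels. SCNN1B, the beta subunit of the epithelial sodium channel, had 10.3, 1.30, 3.55 and 2.56 CPM in grain_PHY and 0.82, 0.37, 0.28 and 1.17 CPM in forage_PHY. Among control libraries it stood at 4.59, 4.03, 1.95, 6.08 and 1.54 CPM in grain_control and 1.28, 3.41, 5.87, 2.49 and 0.94 CPM in forage_control. The PHY groups did not overlap, though grain_PHY 2 and forage_PHY 4 were close, and grain_PHY 1 stood far above the rest. The response was 2.75 in PHY cows and 0.38 in control cows, a difference of 2.37 ± 0.87. It was 1.61 without grain_PHY 1 and 1.40 with the olfactory receptor covariate. SCNN1G, the gamma subunit, had a response of 2.63 in PHY cows and 1.25 in control cows, and its difference was 0.54 with that covariate in place of 1.38.

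The 30 genes of sodium, potassium, urea and water transport had no common direction, with 12 positive and 18 negative differences and a median of -0.21. KCNJ5, a potassium channel, had a response of 3.26 in PHY cows and 1.51 in control cows. Of 31 genes for acid, bicarbonate and short-chain fatty acid transport, 20 had a positive difference, with a median of 0.11. SLC4A3, an anion exchanger, had 2.2 in PHY cows and 0.64 in control cows, and its difference of 1.55 was 0.36 with the olfactory receptor covariate and 0.81 without grain_PHY 1. SLC16A1, the monocarboxylate carrier MCT1 that exports ketone bodies and short-chain fatty acids to blood, averaged 599 ± 175 CPM in grain_PHY and 916 ± 58.8 in forage_PHY, and 798 ± 230 in grain_control and 920 ± 222 in forage_control. Every grain_PHY library lay below every forage_PHY library for SLC16A1, the control groups overlapped, and the difference was -0.41 with an interval from -1.26 to 0.45. SLC9A3, the sodium-proton exchanger NHE3, had a difference of 0.42 with an interval from -1.14 to 1.98, and of -0.54 without forage_control 4.

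Genes of ketogenesis and butyrate use did not share a direction. BDH1, which makes beta-hydroxybutyrate, averaged 202 ± 79.8 CPM in grain_PHY and 373 ± 65.9 in forage_PHY, and 234 ± 119 in grain_control and 321 ± 74.6 in forage_control. Its response was -0.88 in PHY cows and -0.45 in control cows, and the difference of -0.43 had an interval from -1.42 to 0.57 and was -0.10 without grain_control 2. Of 22 ketogenesis and butyrate genes, 13 had a negative difference and 9 a positive one, with a median of -0.19. ACSS2, which activates acetate, had a response of -0.74 in PHY cows and -0.31 in control cows, and ACSM4, a medium-chain acyl-CoA synthetase, had 2.56 and 0.66 in that order at levels under 3 CPM in every group mean.

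Lipid synthesis genes had negative median differences, and none had an unadjusted p under 0.05. Of 23 cholesterol synthesis genes, 19 had a negative difference and 4 a positive one, with a median of -0.43. All genes at 16 to 64 CPM, the bin of that list's median level, had -0.25. The median response of the list was -0.63 in PHY cows and -0.26 in control cows. SQLE, squalene epoxidase, averaged 30.9 ± 5.86 CPM in grain_PHY and 58.7 ± 18.8 in forage_PHY, and 47.0 ± 18.4 in grain_control and 52.2 ± 23.5 in forage_control. MVD of the mevalonate pathway and HMGCS1, its cytosolic entry enzyme, had PHY responses of -0.96 and -0.92 beside control responses of -0.21 and -0.27. SCD, the stearoyl-CoA desaturase, had -1.01 in PHY cows and -0.20 in control cows, within a fatty acid synthesis list of 17 genes with 12 negative and 5 positive differences and a median of -0.16. ANGPTL4, a secreted inhibitor of lipoprotein lipase, had a response of 0.22 in PHY cows and -0.73 in control cows, where grain and forage libraries did not overlap. Its difference of 0.96 had an interval from -0.06 to 1.98.

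Respiratory chain genes parted by the genome that encodes them. All 42 nuclear-encoded subunits had a negative difference, from -0.68 to -0.16, with a median of -0.37. The nuclear list had a median level of 61.8 CPM. Over all genes at 16 to 64 CPM the median difference was -0.25, with quartiles of -0.41 and -0.09, and over 64 CPM it was -0.30. All 13 mitochondrially encoded genes had a positive difference, from 0.14 to 0.63, with a median of 0.34. The nuclear list had a median response of -0.81 in PHY cows and -0.48 in control cows, and the mitochondrial list -0.37 in PHY cows and -0.67 in control cows. All genes at 16 to 64 CPM had median responses of -0.53 in PHY cows and -0.28 in control cows, and those over 64 CPM -0.69 and -0.41. At an unadjusted p under 0.05, 38 of the 42 nuclear genes were lower on grain in PHY cows (17.4% of all genes) and 7 in control cows (4.92% of all genes). Of the 13 mitochondrial genes, 0 were lower in PHY cows and 6 in control cows. The percentages are over genes of every level, and the share at the level of each list was not computed. The difference had 0 genes at an unadjusted p under 0.05 in both lists, with a smallest p of 0.135 in the nuclear list and 0.116 in the mitochondrial one. With the olfactory receptor covariate the nuclear median was -0.08, with 15 of 42 positive, and the mitochondrial median was 0.61 with all 13 positive.

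UQCRQ, a subunit of complex III, averaged 40.3 ± 12.3 CPM in grain_PHY and 86.3 ± 12 in forage_PHY, and 52.5 ± 22.9 in grain_control and 70.4 ± 29.3 in forage_control. COX1, the catalytic subunit of complex IV and among the most abundant transcripts, had 7180, 28436, 30403 and 40596 CPM in grain_PHY and 29957, 31425, 29214 and 46036 CPM in forage_PHY. Control cows had 14951, 20075, 26031, 16131 and 26633 CPM in grain_control and 44111, 31520, 48206, 35000 and 33724 CPM in forage_control. The control groups did not overlap, and in PHY cows grain_PHY 1 lay far below the rest. ND6, encoded on the other strand of the mitochondrial genome from most genes there, had a response of 0.52 in PHY cows and -0.11 in control cows. For ND6 every grain_PHY library, at 631 to 874 CPM, stood above every forage_PHY library, at 428 to 592 CPM.

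All 32 cytosolic ribosomal protein genes had a negative difference, from -0.63 to -0.15, with a median of -0.42 against -0.30 over all genes above 64 CPM. The median response was -0.88 in PHY cows and -0.45 in control cows. RPS3 averaged 142 ± 39.5 CPM in grain_PHY and 312 ± 62.5 in forage_PHY, and 229 ± 112 in grain_control and 324 ± 120 in forage_control. With the olfactory receptor covariate the list median was 0.03, with 19 of 32 positive. Of 21 glycolysis and glucose uptake genes, 16 had a negative difference. Their median was -0.27, beside -0.25 over all genes at 16 to 64 CPM, the bin of the list's median level. HK2, the inducible hexokinase, had a response of 1.73 in PHY cows and 0.82 in control cows. Of 29 antioxidant and glutathione genes, 27 had a negative difference, with a median of -0.35 that was -0.02 with the covariate. All genes at 16 to 64 CPM, the bin of that list's median level, had a median difference of -0.25.

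**Figure D5:**
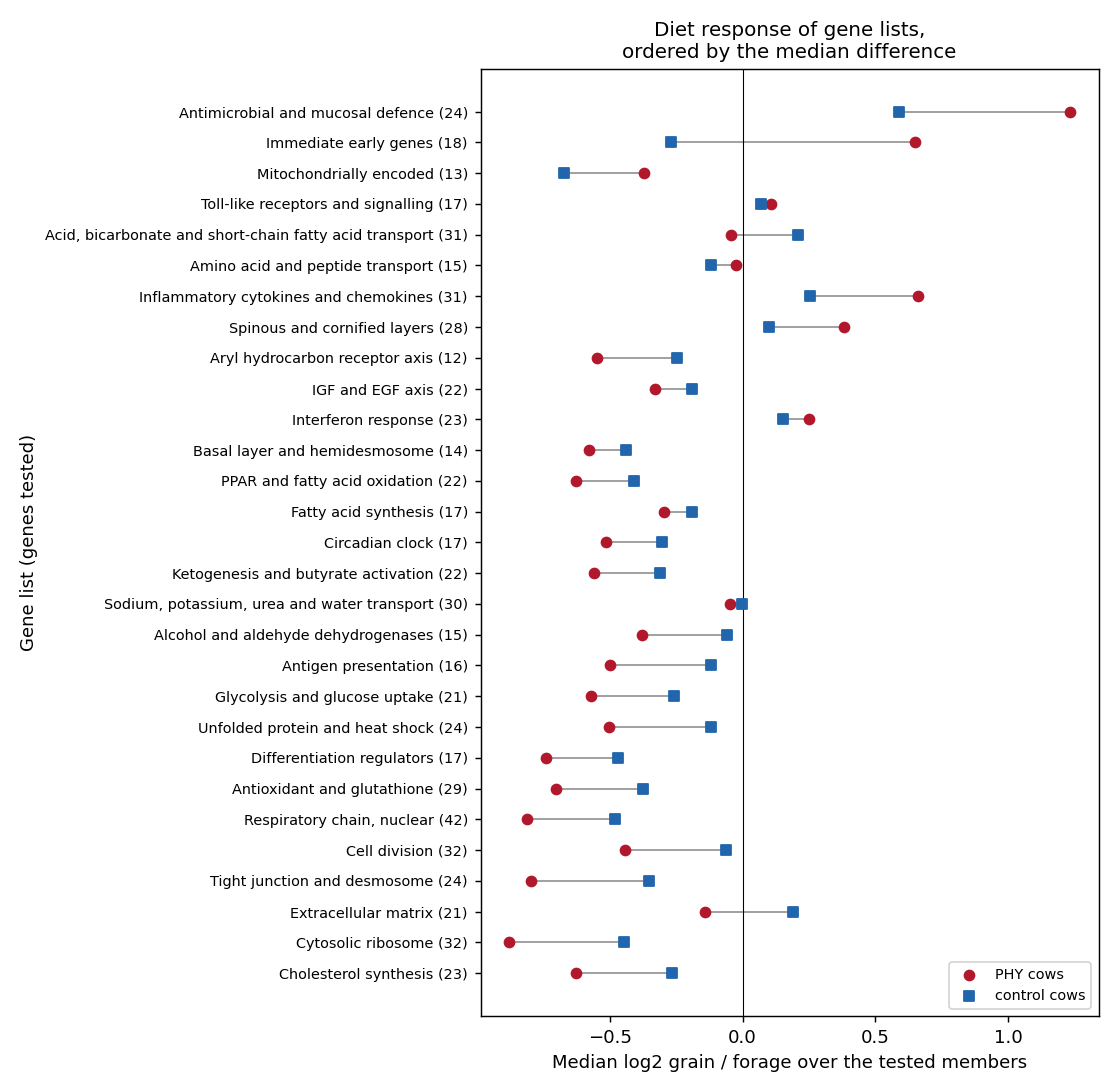
Median diet response (log2 grain over forage) of the tested members of each of the 29 pathway lists in PHY cows (circles) and control cows (squares), ordered by the median difference. Most lists have both medians on the same side of 0, and immediate early genes (0.65 in PHY cows, -0.27 in control cows) have them on opposite sides.

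Aryl hydrocarbon receptor targets did not share a direction. CYP1A1, the receptor's most inducible target, had 3.36, 12.7, 13.6 and 13.0 CPM in grain_PHY and 38.1, 22.8, 15.2 and 109 CPM in forage_PHY. For control cows the values were 11.6, 23.7, 8.88, 6.52 and 16.4 CPM in grain_control and 24.1, 81.9, 44.4, 157 and 78.8 CPM in forage_control. In both arms the grain libraries lay below the forage libraries without overlap, though in control cows grain_control 2 and forage_control 1 nearly met. The response was -2.11 in PHY cows and -2.52 in control cows, and the difference of 0.41 ± 0.83 had an interval from -1.34 to 2.16. TIPARP, a repressor of the receptor, had -0.66 in PHY cows and -0.17 in control cows, and its difference of -0.48 was -0.06 without grain_control 5. For CYP1A1 the difference was -0.02 without forage_control 4 and 1.27 without forage_PHY 4. Of the 12 genes tested on this list, 5 had a positive difference and 7 a negative one, with a median of -0.09.

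Inflammatory genes varied widely among themselves. IL1B, the cytokine interleukin-1 beta, had 6.39, 6.77, 6.13 and 13.3 CPM in grain_PHY and 2.41, 1.12, 2.60 and 0.95 CPM in forage_PHY. In control cows it had 5.20, 0.91, 2.06, 3.23 and 3.32 CPM in grain_control and 2.04, 1.91, 1.87, 0.45 and 1.29 CPM in forage_control. All 4 grain_PHY libraries stood above the other 14, and the control groups overlapped. The response was 2.19 in PHY cows and 0.95 in control cows, and the difference of 1.24 ± 0.69 had an interval from -0.19 to 2.66. CXCL8, the chemokine that draws neutrophils, had 2.04 in PHY cows and 1.16 in control cows, at means of 2.55 ± 1.77 CPM in grain_PHY and 0.62 ± 0.35 in forage_PHY, and 1.39 ± 0.64 in grain_control and 0.62 ± 0.38 in forage_control. The 31 cytokine and chemokine genes had 16 positive and 15 negative differences, with a median of 0.06. TGFB1, a growth factor that restrains epithelial division and inflammation, had a response of -0.86 in PHY cows and -0.27 in control cows.

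Receptors for microbial products did not share a direction. TLR4, the receptor for lipopolysaccharide, averaged 2.61 ± 1.37 CPM in grain_PHY and 5.57 ± 1.46 in forage_PHY, and 4.20 ± 1.04 in grain_control and 4.03 ± 1.80 in forage_control. Its response was -1.09 in PHY cows and 0.05 in control cows, a difference of -1.14 with an interval from -2.30 to 0.02. NOD1, the cytosolic sensor of peptidoglycan fragments, had 0.49 in PHY cows and 0.07 in control cows, with no overlap between grain_PHY and forage_PHY. The 17 genes of this list had 9 positive and 8 negative differences. IFIT2, an interferon-induced gene, had 0.64 in PHY cows and 1.38 in control cows, and its difference of -0.75 was 0.36 without the 3 libraries highest in olfactory receptor CPM.

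Antigen presentation genes had 11 negative and 5 positive differences among 16 tested, with a median of -0.24. BOLA-DRA, the alpha chain of bovine MHC class II, had 9.86, 21.7, 24.0 and 19.4 CPM in grain_PHY and 52.6, 31.9, 24.6 and 33.6 CPM in forage_PHY. The control libraries held 23.0, 25.6, 31.8, 19.3 and 47.9 CPM in grain_control and 25.7, 16.4, 15.8, 42 and 44.6 CPM in forage_control. The PHY groups did not overlap, by a narrow gap, and the control groups overlapped. The response was -0.93 in PHY cows and 0.03 in control cows, a difference of -0.96 ± 0.47. CD74, the invariant chain that accompanies MHC class II, had -0.81 in PHY cows and -0.10 in control cows, and PSMB8 of the immunoproteasome had -1.07 and -0.29 likewise. With the olfactory receptor covariate the differences of BOLA-DRA, CD74 and PSMB8 were -0.59, -0.25 and -0.37, and without grain_control 5 that of PSMB8 was -0.34.

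Antimicrobial and mucosal defence genes had the most positive median of the 29 pathway lists, 0.60, with 21 of 24 genes positive. The members are scarce in these papillae, with a median of 2.49 CPM, and the median response was 1.24 in PHY cows and 0.59 in control cows. DEFB1, a beta-defensin, averaged 2.07 ± 0.93 CPM in grain_PHY and 0.30 ± 0.20 in forage_PHY, and 0.46 ± 0.35 in grain_control and 0.31 ± 0.13 in forage_control. MUC20, a transmembrane mucin, averaged 7.94 ± 1.70 CPM in grain_PHY and 4.12 ± 1.46 in forage_PHY, and 5.99 ± 1.63 in grain_control and 6.50 ± 3.96 in forage_control. For both genes every grain_PHY library stood above every forage_PHY library and the control groups overlapped. The list median was 0.39 with the olfactory receptor covariate, and the difference of DEFB1 was then 2.11 in place of 2.26. Beside it, the 5030 genes under 1 CPM had a median of 0.80 and the 5936 genes at 1 to 4 CPM 0.55.

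Immediate early genes, which switch on within minutes of a stimulus, had medians of opposite sign in the 2 arms. Of 18 genes, 15 had a positive difference, with a median of 0.37, and the median response was 0.65 in PHY cows and -0.27 in control cows. FOS had 59.4, 74.0, 24.6 and 56.0 CPM in grain_PHY and 17.3, 26.7, 26.2 and 19.3 CPM in forage_PHY. Its control levels were 40.3, 72.5, 15.6, 41.7 and 263 CPM in grain_control and 210, 89.5, 67.4, 44.2 and 104 CPM in forage_control. The groups overlapped in both arms, and the 4 forage_PHY libraries were all below every forage_control library. The difference of 1.5 ± 0.86 had an interval from -0.31 to 3.32 and ran from 1.07 to 2.59 over the alternatives. FOSB, a partner of the same family, ran from 1.15 to 91.7 CPM within grain_control and from 0.82 to 39.2 CPM within forage_control. DUSP1, an early phosphatase, had a response of 0.86 in PHY cows and -0.41 in control cows. Leaving out 1 library moved the list median between 0.06 and 0.78.

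Growth factor, stress and clock genes gave smaller values. HBEGF, an epidermal growth factor receptor ligand, had a response of -0.31 in PHY cows and -0.99 in control cows, and IGFBP5, an insulin-like growth factor binding protein, had -0.63 in PHY cows and -0.54 in control cows with an interval of the difference from -1.34 to 1.17. HSPA5, the chaperone of the endoplasmic reticulum, had -0.40 in PHY cows and 0.29 in control cows. Of the 24 unfolded protein and heat shock genes on its list, 22 had a negative difference. The list median was -0.29, beside -0.25 over all genes at 16 to 64 CPM, the bin of its median level. HLF, a clock-output transcription factor, had -0.83 in PHY cows and -0.26 in control cows. LYPD3 and ZNF750, genes of suprabasal keratinocytes, were lower on grain by estimate in both arms, at -1.27 and -1.39 in PHY cows and -0.92 and -0.99 in control cows.

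Matrix genes differed in sign between the arms by median. The 21 extracellular matrix genes had a median response of -0.14 in PHY cows and 0.19 in control cows. Of the 21, 19 had a negative difference, with a median of -0.40. All genes over 64 CPM, the bin of the list's median level, had a median difference of -0.30, with quartiles of -0.42 and -0.16. Most genes at this level thus had a negative difference. Leaving out 1 library moved the list median between -0.80 and -0.12. The summed level of 9 fibroblast markers was 1150 to 2020 CPM in grain_PHY, 178 to 2331 in forage_PHY, 938 to 1586 in grain_control and 245 to 2125 in forage_control. Its diet response was 0.63 in PHY cows and 1.25 in control cows, a difference of -0.62 (exact permutation p = 0.547, adjusted p = 0.866). The part of fibroblast content in the matrix genes was not tested. RGS5, a pericyte marker, had a response of -0.64 in PHY cows and 0.49 in control cows, a difference of -1.13 ± 0.55.

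Markers of the other cell types in a papilla had positive medians where the markers were scarce. The 10 B and plasma cell markers had a median difference of 0.66 that was -0.53 with the olfactory receptor covariate, the 8 Schwann cell and neuron markers 0.83 and -0.10, the 5 mast cell markers 0.72 and 0.06, and the 6 melanocyte markers 0.58 and -0.26. The summed CPM of these 4 marker lists had differences of 0.29, 0.47, 0.45 and 0.05 (exact permutation, adjusted p = 0.866 or above in each). Single markers with an unadjusted p under 0.05 for the difference were CD8A of cytotoxic T cells and DCT of melanocytes. They were 1 of 15 T and NK cell markers and 1 of 6 melanocyte markers. Every other marker list had 0, and the share over all genes was 1.99%. The 15 T and NK cell markers had 10 positive and 5 negative differences, with a median of 0.19. With the olfactory receptor covariate the differences of CD8A and DCT were 1.10 and 1.17, against 1.86 and 2.39 without it. CD8A averaged 4.01 ± 2.31 CPM in grain_PHY and 0.65 ± 0.27 in forage_PHY, and 2.07 ± 1.13 in grain_control and 1.21 ± 0.78 in forage_control. DCT averaged 4.25 ± 2.71 CPM in grain_PHY and 0.58 ± 0.47 in forage_PHY, and 2.03 ± 1.24 in grain_control and 1.46 ± 1.40 in forage_control.

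A pair of genes had means further apart between the arms than between the diets. AZGP1, a secreted zinc-binding glycoprotein, averaged 10.6 ± 2.81 CPM in grain_PHY and 8.99 ± 3.52 in forage_PHY, and 4.35 ± 1.38 in grain_control and 4.14 ± 1.66 in forage_control. CA1, a cytosolic carbonic anhydrase, had 0.54 to 8.55 CPM in grain_PHY and 4.18 to 5.48 in forage_PHY. Control libraries were split, with 62.5, 7.69, 123, 46.8 and 8.09 CPM in grain_control and 115, 6.93, 127, 81.4 and 10.4 in forage_control. The lowest libraries of each control group thus lay near the PHY levels, and the control means rest on the others. The diet responses were 0.24 in PHY cows and 0.05 in control cows for AZGP1, and -0.04 in PHY cows and -0.46 in control cows for CA1. The intervals of the difference were -0.74 to 1.12 and -2.37 to 3.21.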

How the data were processed

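RNA-seq of rumen papillae was analysed from the deposited table of whole-number read counts per Ensembl gene in 18 libraries. Per the labels' protocols, libraries were made from column-extracted total RNA with a stranded total RNA kit. Per the submitters' processing notes, demultiplexing used bcl2fastq 2.20, DESeq2 was applied and the genome build was bosTau9. Not given in the sources used here are the aligner, counter, annotation release and strand setting, so overlapping, antisense or near-identical genes may share reads. The deposited table of normalized signal, made by the authors, was not used for tests. Of 27270 genes, 7506 carry only an identifier and 279 had 0 reads throughout. The tables held 0 columns of other series. Names come from that table, and neither coordinates nor sequences are given.

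Counts were tested with edgeR 4.0.16 in R 4.3.3 (filterByExpr by group, TMM, 1 mean per group, robust quasi-likelihood F test, Benjamini-Hochberg within a contrast). All 18 libraries shared 1 spread, with a biological coefficient of variation of 51.4%. Libraries of 1 cow enter as independent. CPM of genes uses effective library sizes; sums over marker and olfactory receptor genes use total reads, with a pseudocount of 0.1 CPM for their log2. These library sums were compared by exact two-sided permutation of arm labels within each diet. Intervals are 95%, and errors are SE for log2 values and SD for CPM. The test was tried on simulated counts with known changes, at the spread of these libraries and at a smaller one. Recovery of the changes was required only at the smaller spread, so the trial does not show which differences would be missed in these libraries.

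Genes named were the 10 with the smallest p in each direction of the difference, the 10 leading genes with opposite signs, 8 per arm with p under 0.01 in that arm, up to 4 per list from 40 lists, and 20 preset genes, with a symbol and at least 5 CPM in the highest group for all but the last 2 kinds. Not all are printed, and some are not reported here. Members and lists were chosen with earlier results of these data known. Alternatives used DESeq2 1.42.0, limma 3.58.1 and sva 3.50.0.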

Additional observations from a re-analysis of the deposited data

Results flagged for a closer look

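Within groups of 4 or 5 libraries, the highest or lowest library was checked for a gap that is large against the range of its group. Of 380 groups checked, 26 had such a library, and chance flags about 1 in 20 groups. By library there were 6 in grain_control 5, 5 in grain_PHY 1 and 4 in grain_control 1. No cause was tested.

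Standing high in grain_PHY 1, which also had the fewest reads, were the olfactory receptor measure at 345 CPM, ALOX5 at 12.1 CPM and CRNN at 19.6 CPM. HSPA5 at 41.2 CPM and CYP1A1 at 3.36 CPM stood low there. Elsewhere in grain_PHY, SCD was low in grain_PHY 2 at 24.6 CPM, AGBL5 low in grain_PHY 3 at 8.54 CPM and IL1B high in grain_PHY 4 at 13.3 CPM.

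In forage_PHY, FOSB was high in forage_PHY 2 at 2.84 CPM. ACSM4 at 1.22 CPM and the olfactory receptor measure at 32.2 CPM were high in forage_PHY 3. In forage_PHY 4, COX1 was high at 46036 CPM and PSMB8 low at 8.78 CPM.

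Standing high in grain_control 5 were FOS at 263 CPM, FOSB at 91.7 CPM, CCNB1 at 39 CPM, UQCRQ at 92.0 CPM, PSMB8 at 15.0 CPM and HBEGF at 20.5 CPM. In grain_control 1, CRNN at 15.1 CPM, RINL at 6.17 CPM and MUC20 at 8.82 CPM were high and ITGB6 at 4.96 CPM low. TMEM145 was low in grain_control 3 at 2.75 CPM. In forage_control, DUSP1 was high in forage_control 1 at 84.8 CPM and SLC9A3 high in forage_control 4 at 94.4 CPM.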

How the results depend on the processing

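The difference between the arms had 0 called genes in all 28 alternatives, with a smallest adjusted p of 0.68 (edgeR, without grain_control 1). Genes at an unadjusted p under 0.05 ran from 44 (only genes of at least 30 CPM) to 1111 (without grain_control 1), against 442. Besides that library, counts over 1.5 times apart came from leaving out forage_control 2 (238), forage_control 3 (230), forage_control 4 (935), forage_control 5 (1092), grain_control 5 (258), grain_PHY 1 (243) and grain_PHY 4 (727), from the 3 libraries highest in olfactory receptor CPM (991), from voom (850), from DESeq2's Wald test (728) and from no low-count filter (787). The diet contrast of control cows had 0 calls in every alternative. That of PHY cows had 5275 calls under DESeq2's Wald test and 7924 under limma voom with quality weights, all of them in PHY cows only and 0 of them called by the difference. With each library left out in turn it had 0 to 1677 calls, namely 1677 without forage_control 5 and 1428 without grain_control 1, again all in PHY cows only. No alternative called a gene in opposite directions. Of 93 named genes, 82 kept the sign of their difference in every alternative. Leaving out 1 library moved the difference of 40 of the 93 by over 1.5 times, most often grain_PHY 1 (22 genes) and grain_control 5 (17 genes). No paired analysis was possible because no label links a library with its cow and replicate numbers follow the order of deposit alone. Among the 18 libraries grain_PHY 1 had the fewest reads, and for genes under 1 CPM the median interval was ±3.04 on the log2 scale.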
